A study of Mus musculus with 50 samples.

Results

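The difference between 8 h and 4 h after forced swimming was examined in the paraventricular nucleus (PVN) of C57BL/6J mice, as the log2 ratio of stressed over non-stressed RNA at 8 h minus the same ratio at 4 h. The contrast rests on 20 of the 50 arrays of the series, 10 for each time, and on 22824 cDNA clones, which are all spots but the 1368 controls among 24192. Male mice aged 3 to 5 months, single housed, swam for 5 min and were decapitated 4 h or 8 h later, all at the same clock time, so the hours since the swim and the clock time of the swim cannot be told apart. RNA from PVN micropunches of 6 animals was pooled for each condition, amplified, and each stressed pool was hybridised against the pool of non-stressed C57BL/6J mice, which both times share and which cancels in the contrast. On 5 arrays of each time the stressed pool carried Cy5 and on the other 5 it carried Cy3. The arrays repeat 1 pool per condition, so every p-value here covers the error of labelling and hybridisation and not the spread between animals. DBA/2J mice were treated in the same way, with their own pools, and serve as the comparison at the end.

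The PVN holds the neurons that start the hormonal stress response. They release corticotropin-releasing hormone and vasopressin, which drive the pituitary to secrete ACTH, and the adrenal glucocorticoids that follow feed back on the same neurons through a nuclear receptor kept ready for hormone by Hsp90 and its co-chaperones. Peptide hormones are cut from precursors and packed in granules before release. The contrast asks which transcripts of this region stood at a different level, relative to non-stressed mice, at the later time than at the earlier one.

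The arrays were of unequal quality. Between 33.6% and 70.7% of the clones exceeded the brightness below which 95% of the empty spots lay on the 4 h arrays (median 66.3%), against 15.3% to 38.3% on the 8 h arrays (median 26.7%). All 4 h arrays were scanned on 1 day and the 8 h arrays on 2 other days, so scan day and time after stress cannot be told apart. At 8 h the stressed pool carried Cy5 on 5 arrays, of which 4 were scanned on the first of these days, and all other 8 h arrays on the second, so values given by dye orientation also differ in scan day. The log2 ratios of arrays of the same time and dye orientation were weakly correlated over clones, with medians of 0.0673 to 0.14 in the 4 sets. Among 12 clones for marker genes of PVN neurons 7 were above the empty spots. They included the clone for Trh and not those for Avp and Oxt, and Crh could not be matched to a clone by name.

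At the later time 87 clones had a higher ratio and 26 had a lower one, together 113 of 22824 (0.495%), at an adjusted p under 0.05 by limma and a log2 difference of at least 0.5 either way. The share called was 0.381% in the higher and 0.114% in the lower direction. The dyes in the labels set the direction, stressed over non-stressed, and the signs in the study's own lists run the opposite way. The paper's real-time PCR in DBA/2J, on samples not pooled, found Gnai2 raised at 4 h and App at 8 h. That is the direction of its own lists, and the paper also reported up-regulation by in situ hybridisation. Which direction holds was not settled here, and rises and falls below follow the labels. With the sign turned, every higher clone below would be a lower one. The higher clones had differences of 0.52 to 1.69 (median 0.81), which is 1.43-fold to 3.22-fold, and the lower clones differences of -1.38 to -0.53 (median -0.77). The standard errors of the called clones lay between 0.11 and 0.28.

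The levels of the higher and lower sets at each time follow in part from the choice of clones by their difference. They are given as a description. Of the 87 higher clones 76 had a mean ratio below 0 at 4 h and 80 had one above 0 at 8 h. The median ratio of this set went from -0.34 to 0.42. All 26 lower clones had a mean above 0 at 4 h and below 0 at 8 h, and their median ratio went from 0.30 to -0.53. Tested against the non-stressed pool alone, 29 of the higher clones passed the same thresholds at 4 h and 32 at 8 h, and of the lower clones 2 and 12.

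**Figure D1:**
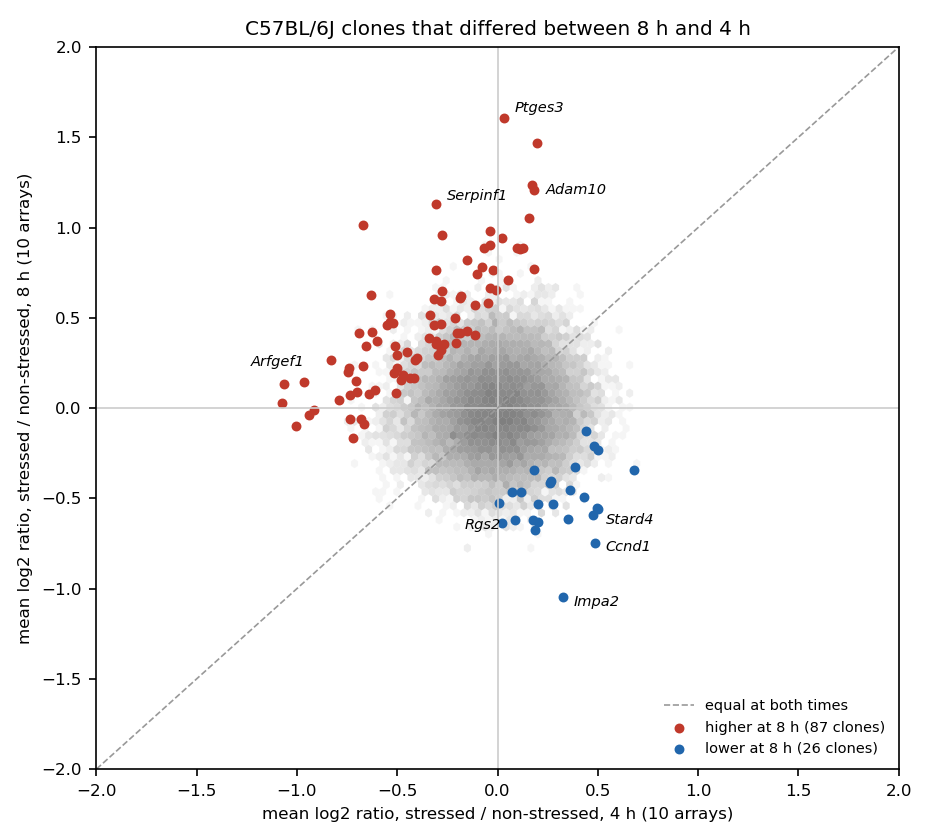
Mean log2 ratio of stressed over non-stressed RNA at 4 h (horizontal axis) and at 8 h (vertical axis), each over 10 arrays, with all 22824 clones as grey hexagons, the 87 clones called higher at 8 h in red and the 26 called lower in blue. Most red points lie left of 0 and above it, and all blue points lie right of 0 and below it.

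Of the 113 clones 108 were above the empty spots over the 20 arrays, none was saturated on any array, and all 113 had the same sign in both dye orientations, as 11447 of all 22824 clones did. The sign in each orientation is part of the value that was tested and lends the calls no separate support. For 30 of the 113 the 10 arrays at 8 h did not overlap with the 10 at 4 h, which held for 41 of all clones (0.180%). A gene symbol could be given to 88 of the called clones. The call held whichever array was left out for 54 of the 113. Among the genes named below it was ended by leaving out any 1 of most of the arrays for several clones: for Sv2a, with any of the 20 arrays, for Nme1, one clone of Cntn1 and one of Dpysl2 (any of 19), for Rps14, Fmnl2, Ubqln2 and one clone of Zcchc18 (any of 18), for Bag4, Myo5a, Nfat5, Ier3, Atp6v0d1 and one clone of Serbp1 (any of 17), for Rpsa, Hmgn1, Uba2 and Ptp4a2 (any of 16) and for Ccnd1 and Ensa (any of 15). After median centring in place of loess the split moved to 53 higher and 43 lower of 96 clones, 55.2% higher against 77.0%.

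Heat shock and receptor chaperone genes gave the largest named difference. Ptges3 encodes p23, the Hsp90 co-chaperone that steadies steroid receptors in their hormone-binding form. One of its clones had log2 ratios at 4 h from -1.20 to 0.80 (median 0.08) and at 8 h from 1.25 to 1.90 (median 1.63). The arrays of the 2 times did not overlap, and the difference was 1.57 ± 0.20 (SE), a 2.97-fold rise (adjusted p = 0.00053). The mean log2 intensity of this clone went from 10.8 at 4 h to 12.2 at 8 h, while the median over all clones went from 8.52 to 8.02. Another clone ran from -0.33 to 0.08 (median -0.08) at 4 h and from 0.34 to 1.07 (median 0.87) at 8 h, again without overlap, and rose by 0.86 ± 0.13 (adjusted p = 0.00324). The other two Ptges3 clones did not pass, at -0.28 and -0.21. A clone named heat shock protein, 1, which the name does not tie to 1 gene, rose by 0.59 ± 0.13 from ratios of 0.01 to 0.34 to ratios of 0.34 to 1.10. One clone for Bag4, a co-chaperone of Hsp70, rose by 0.91 ± 0.20, while the other two stood at -0.28 and -0.48. A clone named only heat shock protein was lower by 1.06 on the log2 scale (-1.06 ± 0.21) but was not above the empty spots, and the others of that name gave 0.00 to 0.14.

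Clones for the proteases Adam10 and Pcsk2 and for the serpin Serpinf1 rose as well. The whole list for granule and peptide processing, which holds Pcsk2, did not rise. Of its 22 clones 3 fell (13.6%) and 2 rose (9.09%) with p under 0.05 by limma before adjustment. The shares of all clones were 4.89% and 5.84%, and the median of the list was -0.18. Adam10 encodes a membrane metalloprotease that sheds the outer parts of Notch, the amyloid precursor protein and other surface proteins. One clone lay between 0.03 and 0.32 (median 0.19) at 4 h and between 0.90 and 1.65 (median 1.20) at 8 h, with no overlap, and rose by 1.03 ± 0.12 (2.04-fold, adjusted p = 0.000288). A further clone rose by 1.06 ± 0.14, from a median of 0.15 to one of 1.24, with its arrays overlapping. The remaining clones gave 0.53 and -0.20 and did not pass. Pcsk2 encodes prohormone convertase 2, which cuts neuropeptide precursors. Its ratios were -0.82 to -0.28 (median -0.66) at 4 h and -0.47 to 0.61 (median 0.09) at 8 h, so the level was below that of non-stressed mice on all 4 h arrays and on both sides of it at 8 h. The difference of 0.71 ± 0.13 passed (adjusted p = 0.0115), with 0.43 where the stressed pool carried Cy5 and 0.98 where it carried Cy3. The other Pcsk2 clone gave 0.24 and did not pass. Serpinf1, a secreted serpin with neurotrophic activity, rose by 1.43 ± 0.22 from a median of -0.31 to one of 1.11, with overlapping arrays.

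Called clones for membrane traffic and the cytoskeleton rose from different levels at 4 h. The whole list for Rab, Arf and membrane traffic did not rise. Of its 307 clones 23 fell (7.49%) and 14 rose (4.56%) with p under 0.05 by limma before adjustment. The shares of all clones were 4.89% and 5.84%. The median of the list was -0.05, and its 2 called clones were both of Arfgef1. Arfgef1 encodes a guanine nucleotide exchange factor that loads Arf proteins for transport at the Golgi. On one clone all 10 arrays at 4 h lay between -1.27 and -0.73 (median -1.13), while those at 8 h lay between -0.21 and 0.69 (median 0.06). It rose by 1.20 ± 0.14 (2.29-fold, adjusted p = 0.000216), and a further clone without overlap rose by 0.91 ± 0.17. The remaining clone gave 0.34 and did not pass. Hook3, an adaptor between cargo and microtubule motors, rose by 1.09 ± 0.17 on 1 of its clones, with the others at -0.09 to 0.37. Myo5a, a myosin that carries organelles, rose by 0.73 ± 0.15, and Fmnl2, a formin that builds actin filaments, by 0.71 ± 0.16 on one clone with the other at 0.16. Tacc1, a centrosomal coiled-coil protein, rose by 1.01 ± 0.14 from a median of -0.09 at 4 h, close to the non-stressed level.

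Proteins of axon growth and adhesion rose on several clones. Dpysl2 encodes a tubulin-binding protein that supports axon extension. One clone ran from -0.34 to 0.46 (median 0.03) at 4 h and from 0.66 to 1.36 (median 0.86) at 8 h, rising by 0.92 ± 0.13 without overlap (adjusted p = 0.00153). A further clone rose by 0.56 ± 0.12 but from a lower level, -0.72 to -0.17 in the medians, so that its ratio at 8 h was still below 0. The remaining clone gave 0.78 and did not pass. Both called clones of Cntn1, an adhesion molecule of axons, had separate arrays at the 2 times and rose by 0.60 ± 0.11 and 0.59 ± 0.13, with the others at 0.46 and -0.08. Ptprz1, a receptor phosphatase of glial cells, rose by 1.05 ± 0.16 and the netrin Ntn3 by 1.23 ± 0.23, the latter with 0.67 in one dye orientation and 1.80 in the other. Rtn4, known as Nogo, rose by 0.79 ± 0.14, from a median of -0.74 to one of 0.16. Gpc4, a heparan sulfate proteoglycan, rose by 0.90 ± 0.16 on one clone and gave -0.57 on the other, which did not pass.

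RNA-binding and nuclear proteins included the clone with the smallest adjusted p among those with a symbol. Zranb2 encodes a zinc finger protein of the spliceosome. Its ratios were -1.25 to -0.74 (median -0.98) at 4 h and -0.03 to 0.39 (median 0.12) at 8 h. No array of one time reached the range of the other, and the difference was 1.11 ± 0.12 (2.16-fold, adjusted p = 0.000195). Serbp1, an mRNA-binding protein, rose by 0.90 ± 0.15 and 1.00 ± 0.22 on 2 clones, the first without overlap, while the other two gave 0.15 and -0.24. The second called Serbp1 clone was brighter at 8 h (mean log2 intensity 11.4) than at 4 h (9.31), against the direction of the median clone. Srsf5, a splicing factor, rose by 0.62 ± 0.13 and Hmgn1, a nucleosome-binding protein, by 0.62 ± 0.13 on 1 of 4 clones, with the others at 0.40, 0.17 and -0.37. Rprd2, a protein bound to RNA polymerase II, rose by 1.04 ± 0.18 on 1 of 3 clones, with the others at 0.20 and -0.45. Meg3, a long non-coding RNA of an imprinted cluster, went from ratios of -0.43 to 0.00 at 4 h to ratios of 0.05 to 0.87 at 8 h, a rise of 0.71 ± 0.14.

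Among the named clones that rose, calcium signalling was represented by Ppp3ca and protein tagging by several genes. Ppp3ca encodes the catalytic subunit of calcineurin, the calcium-dependent phosphatase. Its called clones rose by 0.68 ± 0.14 and 0.66 ± 0.13, the second without overlap between the times, and the other three gave 0.76, 0.32 and -0.64. Nfat5, a transcription factor that answers to osmotic stress, rose by 0.62 ± 0.14 on 1 clone and gave 0.16 and 0.11 on the others. Ube3a, a ubiquitin ligase expressed from the maternal copy in neurons, rose by 0.97 ± 0.20 on 1 of 7 clones, with the others between -0.37 and 0.79. Uba2, a subunit of the SUMO-activating enzyme, rose by 0.85 ± 0.19 on one clone, with 0.37 in Cy5 and 1.33 in Cy3, while its other clone gave 0.09. The mean log2 intensity of the called Uba2 clone was 7.60 at 4 h and 11.8 at 8 h. Over all clones the median was 8.52 and 8.02, so at 4 h this clone was dimmer than the median clone. Usp54 rose by 0.78 ± 0.16, Wsb1, a substrate receptor of a ubiquitin ligase, by 0.97 ± 0.19, and Ubqln2, a shuttle to the proteasome, by 0.62 ± 0.14 on 1 of 4 clones, with the others at -0.06 to 0.21. A clone named synaptosomal-associated protein, without saying which, rose by 0.76 ± 0.14 from ratios of -0.09 to 0.29 to ratios of 0.62 to 1.23, while the other clones of that name gave -0.23 to 0.36. Zcchc18, a zinc knuckle protein, rose on both called clones, by 0.67 ± 0.13 and 0.60 ± 0.13. Among the 87 higher clones the largest difference belonged to a clone known only by its sequence tag, at 1.69 ± 0.21 from a median of -0.68 to one of 1.03 without overlap.

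**Figure D2:**
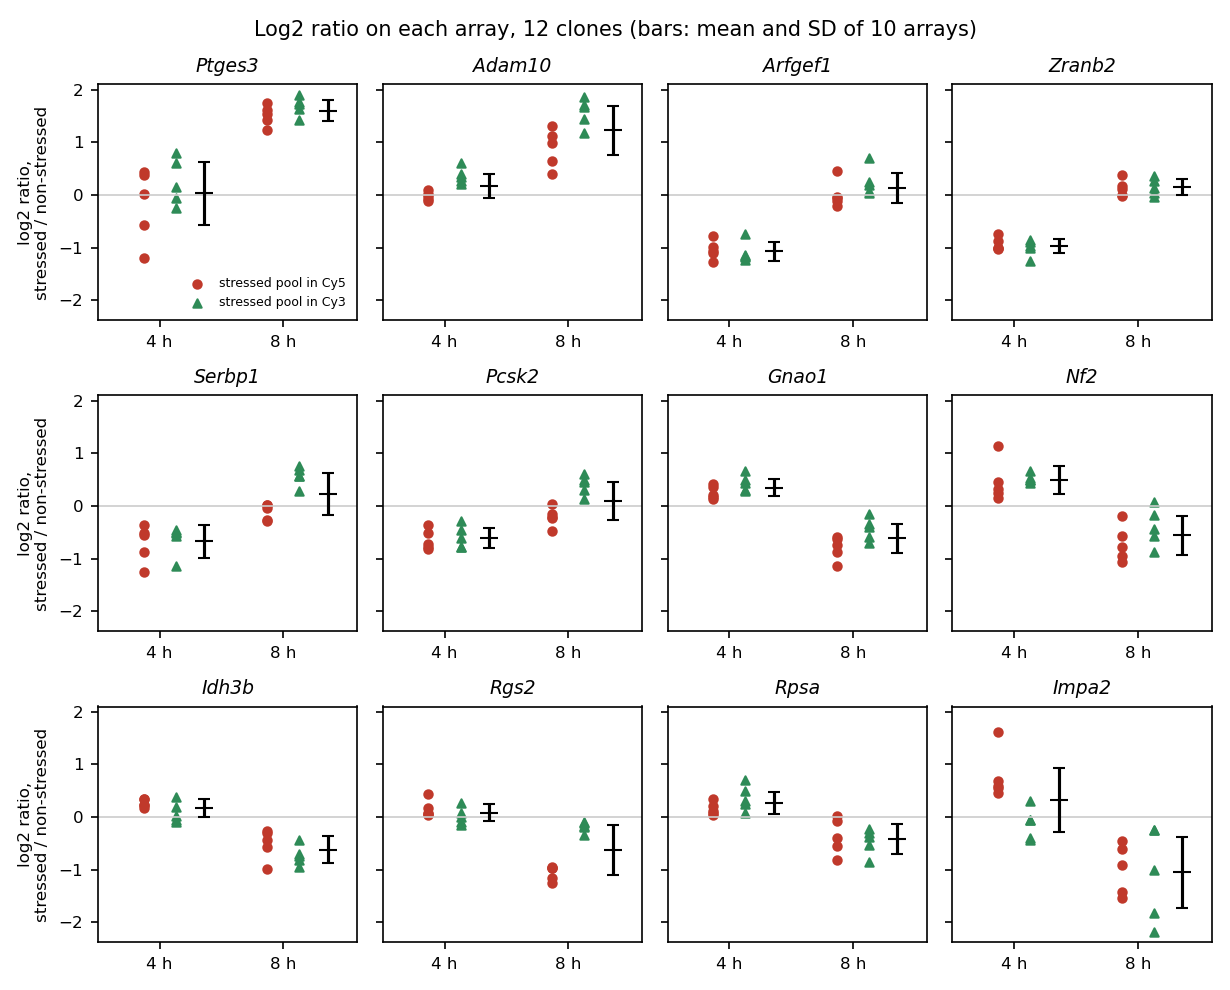
Log2 ratio of stressed over non-stressed RNA on each of the 20 arrays for 12 clones, with red circles for the stressed pool in Cy5, green triangles for Cy3, and bars for the mean and SD of 10 arrays. The Zranb2 and Arfgef1 arrays at 4 h all lie below -0.7 and rise to around 0 at 8 h, the Ptges3 and Adam10 arrays lie around 0 at 4 h and near 1 or above at 8 h, and Gnao1, Nf2, Idh3b, Rgs2, Rpsa and Impa2 move down.

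Among the lower clones, G protein signalling was represented by Gnao1 and Rgs2. Gnao1 encodes the alpha subunit of Go, which couples many inhibitory receptors to ion channels. One clone lay between 0.14 and 0.66 (median 0.33) on all 4 h arrays and between -1.15 and -0.14 (median -0.61) on all 8 h arrays. It fell by 0.97 on the log2 scale (-0.97 ± 0.13, 1.95-fold, adjusted p = 0.000773), while the other clones of the gene gave 0.34, 0.20 and -0.07 and did not pass. Rgs2 encodes a protein that ends signalling through Gq. Its called clone ran from -0.16 to 0.43 (median 0.06) at 4 h and from -1.25 to -0.10 (median -0.65) at 8 h, a difference of -0.71 ± 0.12 (adjusted p = 0.00647). The dye orientations differed in size, at -1.21 with the stressed pool in Cy5 and -0.20 in Cy3, and the other clones gave 0.28 and -0.34.

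The other named clones that fell belonged to genes of varied function. Idh3b, a subunit of the mitochondrial isocitrate dehydrogenase, lay between -0.09 and 0.38 (median 0.21) at 4 h and between -0.98 and -0.26 (median -0.64) at 8 h. It differed by -0.80 ± 0.13 without overlap (adjusted p = 0.00591), and its other clone, at -0.61, did not pass. Nf2 encodes merlin, which restrains growth at cell contacts. Its ratios were 0.15 to 1.14 at 4 h and -1.06 to 0.07 at 8 h, a difference of -1.05 ± 0.17 without overlap, with the other clone at -0.67. Pex13, needed for protein import into peroxisomes, differed by -0.73 ± 0.13 without overlap. Stard4, a carrier of cholesterol, differed by -1.07 ± 0.15 on one clone, from a median of 0.45 to one of -0.58, but the others gave 0.62 and -0.09. Impa2, an inositol monophosphatase, differed by -1.38 ± 0.25 and the cell cycle regulator Ccnd1 by -1.23 ± 0.27, and neither clone was above the empty spots. For Ccnd1 the orientations gave -2.17 and -0.30. The other clones did not pass, at -0.03 for Impa2 and at 0.12 and 0.08 for Ccnd1. Further clones that fell were those for the splicing protein Snrpd2 (-0.92 ± 0.18), the proton pump subunit Atp6v0d1 (-0.86 ± 0.19), Ensa (-0.81 ± 0.17), Scaf1 (-0.81 ± 0.15), Nifk (-0.74 ± 0.15), the isoleucyl-tRNA synthetase Iars (-0.72 ± 0.13), the nucleoside diphosphate kinase Nme1 (-0.53 ± 0.12) and the synaptic vesicle protein Sv2a (-0.53 ± 0.12). Of these genes' other clones, those of Iars (0.37), Sv2a (0.37 and -0.13) and Ensa (0.41, -0.39 and -0.45) lay on both sides of 0, and those of Atp6v0d1 (-0.14) and Nifk (-0.47) below it, and none passed. With the stressed pool in Cy5 the called Sv2a clone lay between 0.13 and 0.47 at 4 h and between -0.10 and 0.31 at 8 h. In Cy3 it lay between -0.04 and 0.09 at 4 h and between -0.93 and -0.74 at 8 h.

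**Figure D3:**
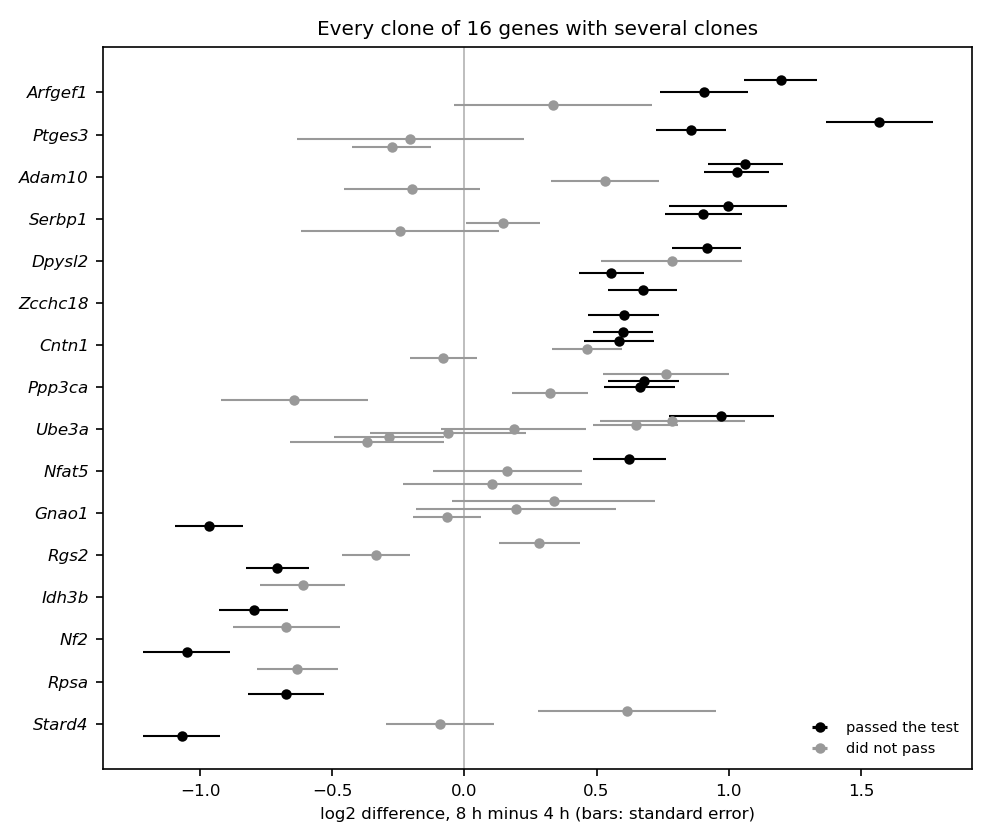
Log2 difference, 8 h minus 4 h, with its standard error for every clone of 16 genes that have several clones on the array, with clones that passed the test in black and the others in grey. In genes such as Adam10, Ppp3ca, Gnao1 and Stard4 the called clones stand beside clones of the same gene that lie near 0 or on its other side.

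Clones that carry the same gene name thus often gave different values, and the files do not give the part of the transcript that each covers. The test concerns the clone in each case.

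For 47 of the 60 genes with a symbol called higher and 16 of the 20 called lower, the 250 bases upstream of the start were available in RefSeq on GRCm38.p6. The promoters of Adam10 and Wsb1, which rose, and of Pex13 and Rgs2, which fell, are shown because each holds the core of the cAMP response element, through which stress signals reach many neuronal genes. They were chosen after the values were seen. Capitals mark matches, on either strand, to the element TGACGTCA or its core TGACG and to the E-box CACGTG, the site of clock proteins and others. The letters run 5′ to 3′ towards the start of the gene.
Adam10 (chr9:70678732-70678981, plus strand): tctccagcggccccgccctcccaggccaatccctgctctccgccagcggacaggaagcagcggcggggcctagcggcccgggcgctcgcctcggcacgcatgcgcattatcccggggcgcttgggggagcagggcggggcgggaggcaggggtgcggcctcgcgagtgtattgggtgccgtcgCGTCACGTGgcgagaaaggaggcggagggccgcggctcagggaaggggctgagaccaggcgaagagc
Wsb1 (chr11:79254696-79254945, minus strand): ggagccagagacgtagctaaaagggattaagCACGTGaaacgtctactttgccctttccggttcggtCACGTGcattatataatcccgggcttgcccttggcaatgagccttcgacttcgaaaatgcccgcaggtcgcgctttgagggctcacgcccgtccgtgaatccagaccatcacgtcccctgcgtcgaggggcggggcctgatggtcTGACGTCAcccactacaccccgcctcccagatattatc
Pex13 (chr11:23665884-23666133, minus strand): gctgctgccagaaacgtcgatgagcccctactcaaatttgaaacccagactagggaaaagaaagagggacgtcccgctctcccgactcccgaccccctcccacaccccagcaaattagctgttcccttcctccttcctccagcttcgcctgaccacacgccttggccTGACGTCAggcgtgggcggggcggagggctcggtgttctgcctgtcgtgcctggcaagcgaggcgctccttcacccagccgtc
Rgs2 (chr1:144004150-144004399, minus strand): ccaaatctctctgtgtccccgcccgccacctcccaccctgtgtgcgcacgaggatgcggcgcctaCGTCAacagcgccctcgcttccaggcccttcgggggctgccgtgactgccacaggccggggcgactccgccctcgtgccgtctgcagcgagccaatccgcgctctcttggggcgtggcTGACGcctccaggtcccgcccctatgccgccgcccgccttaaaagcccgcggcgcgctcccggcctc

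The core TGACG, on either strand, was present in 15 of the 47 promoters of the higher set (31.9%) and in 8 of the 16 of the lower set, against 28.0% of 3908 genes with a clone on the array and 17.9% of all 27025 promoters. The full element TGACGTCA, which contains the core on both strands, stood in 2 of the 47 (Meg3 and Wsb1) and in 1 of the 16 (Pex13), against 3.05% of the genes on the array. E-boxes stood in 4 of the 47 (8.51%) and in 2 of the 16 (12.5%), against 7.68% of the genes on the array. In Adam10 the core and the E-box share bases. These matches describe letters in a window and were not tested against the expression values.

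The cytosolic ribosome had the highest share of clones below 0 at an unadjusted p under 0.05 among the lists of related genes. Of its 117 clones 26 were lower at 8 h at an unadjusted p under 0.05 (22.2%) and 1 was higher, against 4.89% lower and 5.84% higher over all 22824 clones. Those that passed the adjusted test were Rps14 (-0.69 ± 0.16, adjusted p = 0.0473) and Rpsa (-0.68 ± 0.14, adjusted p = 0.0346), both subunit proteins of the small ribosomal particle. The arrays of Rpsa at 4 h lay between 0.03 and 0.71 and at 8 h between -0.86 and 0.01 without overlap, and its other clone gave -0.63. Clones named ribosomal protein S27, S8, L29 and L19 gave -0.63, -0.55, -0.62 and -0.58 without passing, and ribosomal protein S17, at 0.37, was the one above 0 with a p under 0.05. The median of the list was -0.17, that of all clones 0.00. Of the 117 clones 86 were below 0.

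The shift of this list is given array by array as a description, since it rests on the same values as the counts above. The list's median ratio was above 0 on 10 of 10 arrays at 4 h, from 0.12 to 0.21, and on 2 of 10 at 8 h, from -0.12 to 0.09, so the arrays of the times did not overlap. The difference was -0.16 with the stressed pool in Cy5 and -0.18 in Cy3. Ribosomal clones are bright, with 76 of 117 in the brightest of 4 equal bins of all clones, where an unadjusted p under 0.05 was reached by 7.68% of the clones in the lower and 10.6% in the higher direction. The median log2 intensity of the list was 11.0 at 4 h and 9.75 at 8 h, against 8.52 and 8.02 over all clones. The part of array brightness in the shift was not tested.

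Other lists of the protein and energy supply had more clones below 0 than above it at an unadjusted p under 0.05, in smaller shares. The mitochondrial ribosome had 10 of 83 clones below 0 and 1 above it by that unadjusted p, a median of -0.11 and no called clone, but its median was 0.00 with the stressed pool in Cy5 and -0.12 in Cy3. Of 124 clones for oxidative phosphorylation 15 were lower and 4 higher, with a median of -0.11 and none called. Translation factors and tRNA synthetases had 14 of 124 lower and 7 higher, with Iars called, and a median of -0.02 that was 0.04 with the stressed pool in Cy5 and -0.10 in Cy3. In the opposite direction, 23 of 243 clones for RNA splicing and ribonucleoproteins were higher and 4 lower, with Zranb2, Srsf5 and, downwards, Snrpd2 called, and 13 of 148 clones for chromatin enzymes were higher and 3 lower, with Hmgn1 called. The splicing list had a median of 0.02 and depended on the orientation, with 10 higher and 10 lower in the Cy5 arrays alone against 21 and 7 in the Cy3 arrays alone.

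**Figure D4:**
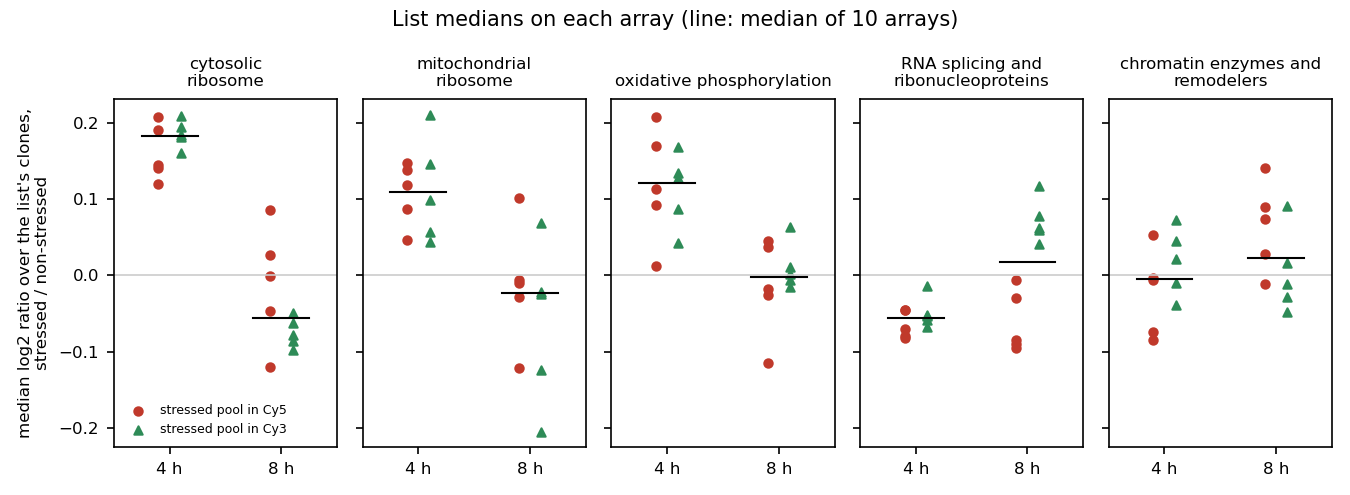
Median log2 ratio of stressed over non-stressed RNA over the clones of 5 gene lists on each of the 20 arrays, by time and dye orientation, with a line at the median of 10 arrays. The cytosolic ribosome lies between 0.12 and 0.21 at 4 h and between -0.12 and 0.09 at 8 h, and the oxidative phosphorylation list between 0.01 and 0.21 and between -0.11 and 0.06.

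Genes of the stress signal itself were examined in the same way. Of 41 clones for the glucocorticoid receptor, its helpers and the genes it induces, 7 lay above 0 (17.1%) and 3 below it (7.32%) with an unadjusted p under 0.05, against 5.84% and 4.89% over all clones. The called ones were the 2 clones of Ptges3, against 0.495% called over all clones. Klf9, a transcription factor induced by glucocorticoids, gave 0.66, 0.88 and 0.38 on 3 clones (adjusted p = 0.0883 for the first). Fkbp5, which dampens the receptor, gave -0.61 ± 0.17 (adjusted p = 0.154), and the glucocorticoid-induced kinase Sgk1 gave -0.57 (adjusted p = 0.278) on a clone not above the empty spots. Among 32 clones for immediate early genes Ier3 rose by 0.64 ± 0.14 on one clone and gave -0.34 on the other. Egr1, a fast-responding transcription factor, gave -0.53 and 0.50 on different clones. None of these differences other than those of Ptges3 and Ier3 passed.

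No clone of the 23 for hypothalamic peptides was called. Vasopressin, Avp, gave -0.68 ± 0.29 (adjusted p = 0.406) on a clone not above the empty spots, with -1.28 in one orientation and -0.08 in the other. Oxytocin, Oxt, gave -0.19, thyrotropin-releasing hormone, Trh, -0.31, and Bdnf 0.66. Among 22 clones for granule and peptide processing genes only Pcsk2 was called, with a median of -0.18 over the list. Of the 36 clones for circadian clock genes 4 lay above 0 and 0 below it with an unadjusted p under 0.05 and none was called by limma. They included Bhlhe41, a repressor of clock output, at 0.76 (adjusted p = 0.0667), and Per3 at 0.54. The clock list is given because the swims took place at different clock times.

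The genes that the study itself tabulated as examples for C57BL/6J were chosen on these samples and are no independent evidence of a direction. Of 24 clones for its 4 h examples 4 were called higher, namely 2 for Dpysl2 and 1 each for Bag4 and Ubqln2. Ogfrl1 gave 0.92, Ubl3 0.72 and 0.47, Pold1 0.66 and Cadps 0.61, from mean ratios of -1.22 to -0.56 at 4 h, and did not pass. Of 45 clones for its 8 h examples 4 were called higher, among them 2 for Adam10 and 1 for Ptp4a2, and 4 lower, for Gnao1, Idh3b, Nme1 and Rgs2. Insig1, which holds back sterol synthesis, gave 0.92, 0.65 and -0.05 and did not pass.

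Markers of the cell types that a punch of this region can hold were counted in the same way. With an unadjusted p under 0.05, neuronal markers had 1 of 34 clones above 0 and 4 below it, astrocyte markers 8 and 8 of 50, oligodendrocyte markers 5 and 3 of 56, microglial markers 1 and 3 of 18, and endothelial and mural markers 4 and 0 of 38. Blood cell markers had none of 18, choroid plexus markers 1 and 3 of 26, markers of cortex, hippocampus and striatum 0 and 2 of 29, and thalamic markers 1 and 0 of 24. Markers of other hypothalamic and preoptic nuclei had 2 and 2 of 16, and those of PVN neurons 0 and 1 of 12. Over all clones the shares were 5.84% above 0 and 4.89% below it. Astrocyte markers exceeded both, equally in either direction, and oligodendrocyte markers did too (8.93% and 5.36%). So did markers of other hypothalamic and preoptic nuclei, at 12.5% in either direction. Endothelial and mural markers exceeded the share above 0 (10.5%). Neuronal (11.8%), PVN neuron (8.33%), microglial (16.7%), choroid plexus (11.5%) and cortex, hippocampus and striatum markers (6.90%) exceeded the share below 0. The lists are small and these shares were not tested. The called members included the endothelial receptor partner Ramp2 (0.93 ± 0.17), whose other clone gave 0.03. In pooled tissue fewer cells of a type and less RNA per cell cannot be told apart, and the part of tissue composition in the differences was not tested.

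In DBA/2J the same contrast called 229 clones (1.00%), 128 of them higher. Of the 113 clones 13 were called in DBA/2J, 12 of them in the opposite direction. The 1 that was called in the same direction was heat shock protein, 1, at 0.94 in DBA/2J. The difference between the strains, tested over the 40 stress arrays, was called for 639 clones (2.80%), and for 83 of the 113. Members called in C57BL/6J were chosen for a large value there, and that value is part of the strain difference, so the 83 is read as a description and not as support.

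Ptges3 differed most between the strains among the named clones, with 1.57 in C57BL/6J against -1.17 in DBA/2J (adjusted p = 4.24e-10 for the difference of 2.74). Arfgef1 gave 1.20 against -0.90, Pcsk2 0.71 against -0.68 and Adam10 1.03 against -0.58. Each of these differences between the strains passed the test, and the signs were opposite in the strains for these 4 clones. The uncalled clones of Arfgef1, at 0.33 and 0.46, and of Pcsk2, at 0.24 and 0.32, had the same sign in both strains. Of the clones that fell, Stard4 gave -1.07 against 1.08, Nf2 -1.05 against 0.62 and Idh3b -0.80 against 0.54, and these passed too. Serpinf1, at 1.43 and 0.58, and Meg3, at 0.71 and 0.82, were higher at 8 h in both strains, and the strain difference passed for neither (adjusted p = 0.0837 and 0.917).

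The cytosolic ribosome list had a median of 0.14 in DBA/2J against -0.17 in C57BL/6J, and 17 of its 117 clones were called with the C57BL/6J difference below and 2 with it above. For oxidative phosphorylation 8 of 124 clones were called below and 0 above. The shares called in either direction were 16.2% for the ribosome list and 6.45% for oxidative phosphorylation. Over all 22824 clones the share was 2.80%, with 276 below and 363 above. Over the 113 called clones 28 had the same sign in both strains, against 10806 of all 22824.

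**Figure D5:**
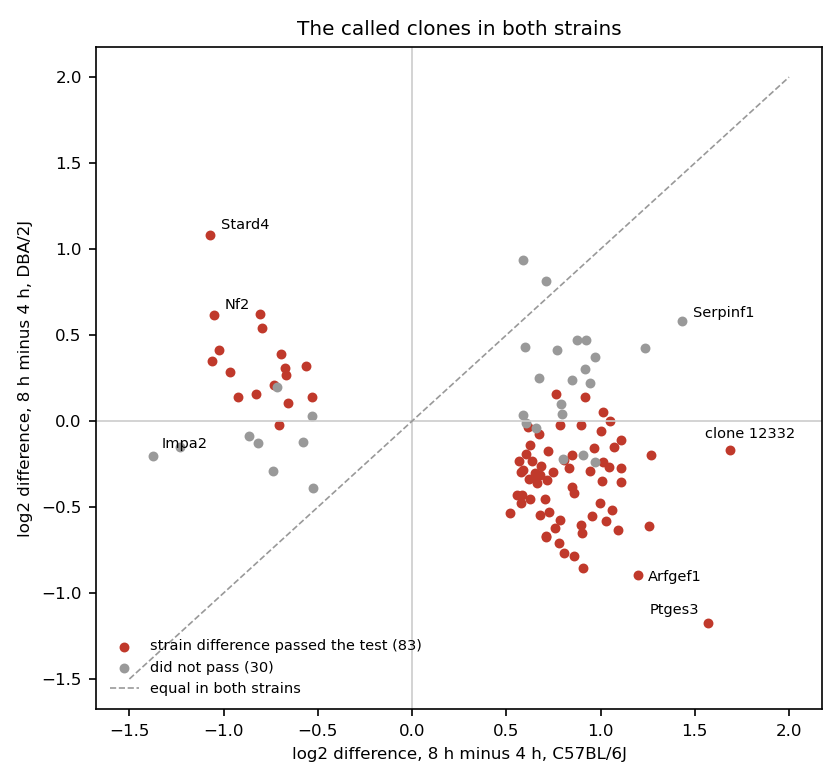
Log2 difference, 8 h minus 4 h, in C57BL/6J (horizontal axis) and in DBA/2J (vertical axis) for the 113 clones called in C57BL/6J, red for the 83 whose strain difference passed the test and grey for the other 30, with the dashed line marking equal values. Of the 87 clones on the right 20 lie above 0 in DBA/2J, and of the 26 on the left 8 lie below it.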

How the data were processed

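RNA of PVN micropunches, 1 pool of 6 animals per condition, was measured on a mouse cDNA array with Cy3 and Cy5. Arrays were grouped by their labels. The deposited spot files hold the intensity of each of 24192 spots and its local background in both channels, which the authors scanned and quantified with fixed circles and did not normalize. The deposited table of processed values holds log2 ratios that the authors normalized by a procedure not given in the sources used here. Its scale and direction were found by setting it against the spot files, the filter behind it stays unknown, and it served as an alternative. The fold changes in the study's own lists were not used.

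Here the background was corrected by normexp (offset 50), a global loess was run on the ratios of every array, and these were turned to stressed over non-stressed by the dyes in the labels. The model (limma 3.58.1, R 4.3.3; lmFit, then eBayes) had a mean and a dye term for each time. Benjamini-Hochberg adjustment of the p-values ran over all 22824 clones, and a clone was called at an adjusted p under 0.05 with a log2 difference of at least 0.5 either way. The fit was tested on simulated data. The number of arrays limits the precision, with a median standard error of 0.26 over all clones. The replicate numbers do not pair arrays: deviations of same-numbered arrays from their group means correlated by -0.00397 to 0.0119, and the numbers only name arrays.

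Symbols came from identifiers in the file's clone names matched to RefSeq, for 6003 clones through RIKEN identifiers, and from 90 full names paired by hand after values had been seen. Other clones keep the file's name, which can be old. Where a gene has several clones, each is a separate test. The members of the lists and the genes named were chosen with earlier results of these data known. Named by rule were, of called clones that have a symbol and one sign in both orientations, the 12 at either end, genes with 2 or more called clones, up to 4 called members of each list, and the study's example genes, with all their clones. Tacc1, Rtn4, Wsb1, Meg3, Tnfrsf12a, Igip and the 2 sequence tags are called clones outside this rule, added after values had been seen. Some list members that were not called are named as well. Lists are described by counts and medians, with no test. Alternatives changed 1 choice at a time. The values of 1 gene are not reported here.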

Additional observations from a re-analysis of the deposited data

Results flagged for a closer look

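In 7 of the 124 groups of 10 arrays screened, over 62 clones, 1 array stood apart from the others by a Dixon test, which chance alone gives in about 1 group in 20. At 4 h these were replicate 10 for C330018D20Rik, at -1.88 with its nearest neighbour at -0.8649, replicate 5 for Rprd2, at 0.2218 against -0.4368, and replicate 5 for Nf2, at 1.137 against 0.675. At 8 h they were replicate 5 for 1600022A19Rik, at -0.6437 against 0.1545, and for Nifk, at -0.9628 against -0.3777, and replicate 2 for one Ppp3ca clone, at 0.8582 against 0.3485, and for one Dpysl2 clone, at -0.5772 against -0.2802. For C330018D20Rik, Nf2, Nifk and Ppp3ca the outlying array lay on the side that made the difference between the times larger. For Rprd2, 1600022A19Rik and Dpysl2 it made the difference smaller.

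The time difference itself differed between C57BL/6J and DBA/2J for 639 clones, among them 45 of the 62, tested by limma over the 40 stress arrays. The values that follow are the log2 difference in C57BL/6J minus that in DBA/2J. In 34 of the 45 the C57BL/6J value was the higher one. The widest gap, 2.743, was that of a Ptges3 clone. Chaperone and surface protease clones also gave 1.642 for Ptges3 and 1.581 and 1.608 for Adam10, and Pcsk2 gave 1.385. Among transport and cytoskeletal genes, Arfgef1 gave 2.092 and 1.762, Hook3 1.729, Fmnl2 1.377, Myo5a 1.258 and Atp6ap2 1.058. RNA-binding and nuclear proteins gave 1.461 for Zranb2, 1.474 and 1.554 for Serbp1, 1.314 for Rprd2, 0.7658 for Hmgn1, 0.6519 for Srsf5 and 0.7515 for Zcchc18. Adhesion and axon growth genes gave 1.499 for Gpc4, 1.052 for Ptprz1, 1.013 for Cntn1 and 0.985 for Dpysl2. Signalling and ubiquitin pathway genes gave 1.488 for Usp54, 1.382 for synaptosomal-associated protein, 1.08 for Nfat5, 1.047 for Uba2, 0.9945 and 1.021 for Ppp3ca, 0.9613 for Ubqln2 and 0.8684 for Ier3. Clones without a known gene gave 1.869 (C330018D20Rik), 1.857 and 1.467 (2 sequence tags) and 1.38 (1600022A19Rik).

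In the other 11 the C57BL/6J value was the lower one. Stard4 gave -2.15, Nf2 -1.667, Scaf1 -1.429, heat shock protein -1.41, Idh3b -1.337, Gnao1 -1.252, Rps14 -1.082, Snrpd2 -1.063, Rpsa -0.9823, Pex13 -0.9385 and Rgs2 -0.686. Since these clones were named for a large value in C57BL/6J, the gaps are given as values only.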

How the results depend on the processing

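Against 113 clones called between the times, the counts under other processing were 96 with median centring, 106 with the background left in, 125 with scaling between arrays, 140 with the processed values, 113 without the fold threshold, 128 with the fold and Z-score screen (the Z-score is not defined in the methods and was taken as the difference over the combined SD), and 147 with the methods' t-test after Benjamini-Hochberg adjustment. The count moved further to 305 when only clones above the empty spots were tested, 180 with all 50 arrays in one fit, 44 without a dye term, 50 with scan day as a random block (estimated correlation 0.0287) and 1269 with the methods' t-test unadjusted. It was 1 with the stressed pool in Cy5 only and 18 in Cy3 only, with fewer arrays in each, and 2 when only the 8 h arrays of the second scan day were kept, an alternative chosen after seeing the data, as was leaving out the pair of 8 h arrays with channels in the opposite order (77). With the arrays of each orientation averaged first, limma called 0, with 521 clones at an unadjusted p under 0.05, in a fit that has few residual degrees of freedom. With the replicate number as a block 15 were called, although the numbers do not pair the arrays. Leaving out 1 array at a time gave 62 to 99 calls. The count dropped by over 1.5 times without 4 h replicates 9 (62), 2 (64), 4 (66), 8 (67), 3 (69) or 10 (73) or 8 h replicate 7 (69). Of the 113 clones 54 were called whichever array was left out, among them those described above for Ptges3, Adam10, Arfgef1, Zranb2, Pcsk2, Gnao1, Rgs2, Nf2 and Idh3b. No called clone changed sign under background, normalization, processed values, single orientations or left-out arrays. The clones were chosen for a large difference on these arrays, so the kept sign lends the calls no separate support. All 113 lost the call with the stressed pool in Cy5 only, and 110 in Cy3 only, with fewer arrays in each. The call was lost for 40 with median centring, 21 with print-tip loess, 10 without background subtraction and 14 of 112 with the processed values. The cause of these changes was not tested.

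For the strain difference, 639 calls became 985 among clones above the empty spots, 330 without a dye term, 520 with the replicate block and 0, with 838 at an unadjusted p under 0.05, with orientations averaged in limma. Leaving out 1 array gave 560 to 647. With median centring 284 had the C57BL/6J difference above and 330 below, against 363 and 276. The ribosomal median stayed between -0.24 and -0.16 under the alternatives of background, normalization and processed values.

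Depth of signal limits the 8 h side most, since fewer clones there were above the empty spots.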

Other observations

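Synaptic genes were counted against 5.84% of all clones above 0 and 4.89% below it with an unadjusted p under 0.05, and 0.495% called. Of 59 clones for synaptic scaffolds and adhesion molecules 9 lay above 0 (15.3%) and 2 below it (3.39%), and the 2 clones of Cntn1 were called, and of 111 clones for synaptic vesicle and SNARE genes 14 were higher (12.6%) and 8 lower (7.21%), with synaptosomal-associated protein called up and Sv2a called down. Clones for neurotransmitter receptors had 7 higher and 2 lower of 59 with none called, and those for voltage-gated ion channels 5 higher and 7 lower of 89 with none called. Cytoskeletal and motor genes had 24 higher and 11 lower of 244, and genes of calcineurin, calmodulin and the CaM kinases 9 higher and 5 lower of 62, with Ppp3ca and Nfat5 called.

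Solute carriers had 7 higher (2.62%) and 11 lower (4.12%) of 267 and none called, and the proteasome and ubiquitin list 23 higher (6.15%) and 21 lower (5.62%) of 374 with 5 called. GABA synthesis gave different signs in its enzymes: a clone for glutamic acid decarboxylase gave -0.51 (adjusted p = 0.0848) and the Gad2 clone 0.66, and neither passed. Further clones that rose carry genes outside these lists. Tnfrsf12a, the receptor of the cytokine TWEAK, went from ratios of -0.67 to -0.02 at 4 h to ratios of 0.10 to 1.00 at 8 h without overlap, a difference of 0.92 ± 0.14. Igip rose by 0.70 ± 0.12 and Atp6ap2, an accessory protein of the proton pump, by 0.72 ± 0.13 on one clone with the other at 0.46.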
